A study of Mus musculus with 77 samples.

Results

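Lungs of newborn C57BL/6J (B6) mice kept in high oxygen were compared with lungs of B6 mice kept in room air. The samples were all B6 lung RNA libraries in the table that holds B6 and Trem2 knockout (KO) lungs, 7 of the 77 samples of the series: 3 hyperoxia libraries and 4 room-air libraries. Mice of the hyperoxia group were placed in 75% oxygen within 24 h of birth and stayed there to postnatal day 14. The room-air group had the same strain and age and breathed normal air. Both groups were wild type, and lungs of both were perfused with buffered saline and snap frozen whole. Poly(A) RNA was selected with oligo d(T) and sequenced. Of 24940 genes listed, 15614 had at least 1 TPM (read counts per transcript length, scaled to a common total) in at least 3 libraries and were tested. A second set of B6 lungs had 3 hyperoxia and 2 room-air libraries that were all male. It came from its own table and had no library in common with the first. Its labels and those of the KO lungs also give postnatal day 14, and 75% oxygen for hyperoxia. The second set was tested on its own, with 14636 genes. The labels do not say whether libraries of a group came from separate animals, so the p-values here speak only of the spread among these samples, which may be technical.

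The mouse lung forms most of its alveoli in the first weeks after birth, when septa carrying capillaries, elastic fibres and fibroblasts divide the air sacs. High oxygen in this window injures epithelium and endothelium and leaves larger and fewer alveoli, and it is used as a model of bronchopulmonary dysplasia. Oxygen radicals damage DNA and stabilise p53, a transcription factor that drives genes for cell-cycle arrest and cell death, above all Cdkn1a. They also release NRF2, which binds antioxidant response elements and drives glutathione and quinone-detoxifying genes. Glucocorticoids, the adrenal stress hormones, act through a receptor that binds its own elements and that also shapes lung maturation.

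Estimated reads were 23.4 to 30.0 M per hyperoxia library and 23.3 to 41.1 M per room-air library, and 7.08 to 8.04 M in the second set. Pairs of libraries within a group correlated at 0.973 to 0.987 (Pearson's r over log2 values of genes) and had at most 0.564% of values in common, so no library was a copy of another. The hyperoxia libraries were from 1 female and 2 males and carried 1 date code in their names. Room-air libraries were from 2 males with that same code and 2 females with a later code. Sex and date code were therefore partly confounded with oxygen, and the gene list counts below are for all 7 libraries unless stated. Counts for males alone (2 against 2), for the first date code alone (3 against 2) or without 1 library are added where the larger of a list's counts moved by over 1.5 times. In all lists of values the hyperoxia libraries stand in the order female, male 2, male 3, and the room-air libraries in the order male 1, male 2, female 1, female 2. The defining genes of lung were high in both groups. Sftpc, the surfactant protein of alveolar type 2 cells, lay at 18766 to 21540 TPM in hyperoxia and at 17082 to 27302 TPM in room air. Ager, of alveolar type 1 cells, lay at 1092 to 1310 TPM in hyperoxia and at 1143 to 1406 TPM in room air, and Pecam1, of endothelium, at 347 to 399 TPM and 401 to 437 TPM. The liver gene Alb stayed at or below 2.03 TPM in all libraries. Genes of red cells varied widely, with summed levels of 1190 to 2956 TPM in hyperoxia and 595 to 10476 TPM in room air.

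Of the genes tested, 6662 (42.7%) differed between hyperoxia and room air at an adjusted p under 0.05 (limma, Benjamini-Hochberg adjustment over all genes tested), with 2595 (16.6%) higher and 4067 (26.0%) lower in hyperoxia. Values of the groups did not overlap for 6819 genes (43.7%). A difference of at least 1 on the log2(TPM + 1) scale, the scale of all fold changes here, was reached by 344 called genes (2.20%) that were higher and by 554 (3.55%) that were lower. The median over all genes tested was -0.07. After median-ratio scaling 49.4% of the calls were in the higher direction, against 39.0% without it, so the balance of rises and falls over all genes depended on the scaling. No call changed sign under either scaling that was tried. Against this background of 42.7%, single calls were common. The size of a change is given with most results, and second-set values with many but not all. First-set list counts below stand beside 16.6% higher and 26.0% lower over all genes tested. In the second set 723 genes were called (4.94%), 458 higher (3.13%) and 265 lower (1.81%). That count rested on single libraries, with 123 and 187 genes called without room-air male 2 or male 1, and 350 and 404 without hyperoxia male 1 or male 3. Of the 6490 genes called in the first set and tested in the second, 65.3% had the same sign there, compared with 54.6% of the 8021 genes not called in the first. Both sets called 421 genes, of which 216 were higher in hyperoxia in both and 155 lower in both. For 603 genes the second table lists another transcript than the first, among them Psrc1, Gdf15, Gsta3, Mb, Csrp3 and Plekha6.

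Cdkn1a, which encodes the p21 inhibitor of the cell cycle, was the largest rise. It had 357, 428 and 330 TPM in hyperoxia libraries, against 22.1, 24.6, 26.8 and 29.3 TPM in room air, a log2 difference of 3.80 ± 0.11 (SE, adjusted p = 1.09e-11). The groups were far apart, with no room-air library above 29.3 TPM. Arg2, the mitochondrial arginase, had 39.8, 46.5 and 37.5 TPM in hyperoxia, against 2.29, 2.08, 4.64 and 2.54 TPM in room air. Arg2 had 6.05, 8.41 and 11.8 TPM in hyperoxia, against 4.44 and 4.94 TPM in room air, in the second set and was not called (log2 difference 0.74, adjusted p = 0.111). Spink5, an epithelial serine protease inhibitor, had 81.0, 82.7 and 76.2 TPM in hyperoxia, against 8.49, 9.07, 11.7 and 10.3 TPM in room air. Its rise returned in the second set at 2.5 on the log2 scale (adjusted p = 0.000218). Cxcl17, a chemokine of mucosal epithelium, had 25.2, 22.1 and 22.4 TPM in hyperoxia, against 2.98, 6.19, 1.92 and 2.82 TPM in room air (log2 difference 2.52 ± 0.29, adjusted p = 8.43e-06). Second-set libraries had 53.4, 33.7 and 56.3 TPM in hyperoxia, against 5.09 and 5.81 TPM in room air. Clca3a1, a regulator of chloride conductance, had 5.50, 9.32 and 10.6 TPM in hyperoxia and 0.734, 0.459, 0.880 and 0.355 TPM in room air, and its second-set difference of 0.57 was not called (adjusted p = 0.257).

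The largest falls were a varied group. Crabp1, which binds retinoic acid in the cytoplasm, had 1.26, 1.28 and 1.39 TPM in hyperoxia, against 29.7, 41.7, 55.5 and 76.0 TPM in room air in the first set, and 13.2, 8.62 and 13.1 TPM in hyperoxia, against 74.4 and 67.2 TPM in room air, in the second. Fabp1, a fatty acid binding protein, was listed at 0 in all hyperoxia libraries, against 2.60, 7.68, 10.2 and 10.3 TPM in room air (adjusted p = 1.3e-05). Second-set Fabp1 was at 0.306, 0 and 0 TPM in hyperoxia and at 3.79 and 2.39 TPM in room air. Ntrk2, the receptor of brain-derived neurotrophic factor, had 1.55, 1.18 and 1.01 TPM in hyperoxia, against 15.3, 12.3, 10.2 and 16.8 TPM in room air, and fell in both sets (-2.69 and -2.08 on the log2 scale, adjusted p = 1.94e-07 and 0.002). Prelp, a leucine-rich proteoglycan of the matrix, had 14.1, 9.99 and 7.74 TPM in hyperoxia, against 53.5, 60.6, 67.2 and 62.8 TPM in room air, and likewise fell in both sets (-2.45 and -1.42, adjusted p = 7.88e-08 and 0.00125). Slitrk6, a transmembrane protein known from neurons, was called lower in the first set, with 1.21, 1.15 and 1.86 TPM in hyperoxia, against 13.3, 11.4, 9.75 and 12.4 TPM in room air. Its second-set log2 difference was 0.16 (adjusted p = 0.738). Ptpn5, Tubb4a, Kctd21, Plekha6 and AU021063 completed the 15 largest falls among named genes, with log2 differences of -2.16 to -2.47. In whole lung, fewer cells of a type and less RNA per cell cannot be told apart, here and for all cell type genes below.

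**Figure D1:**
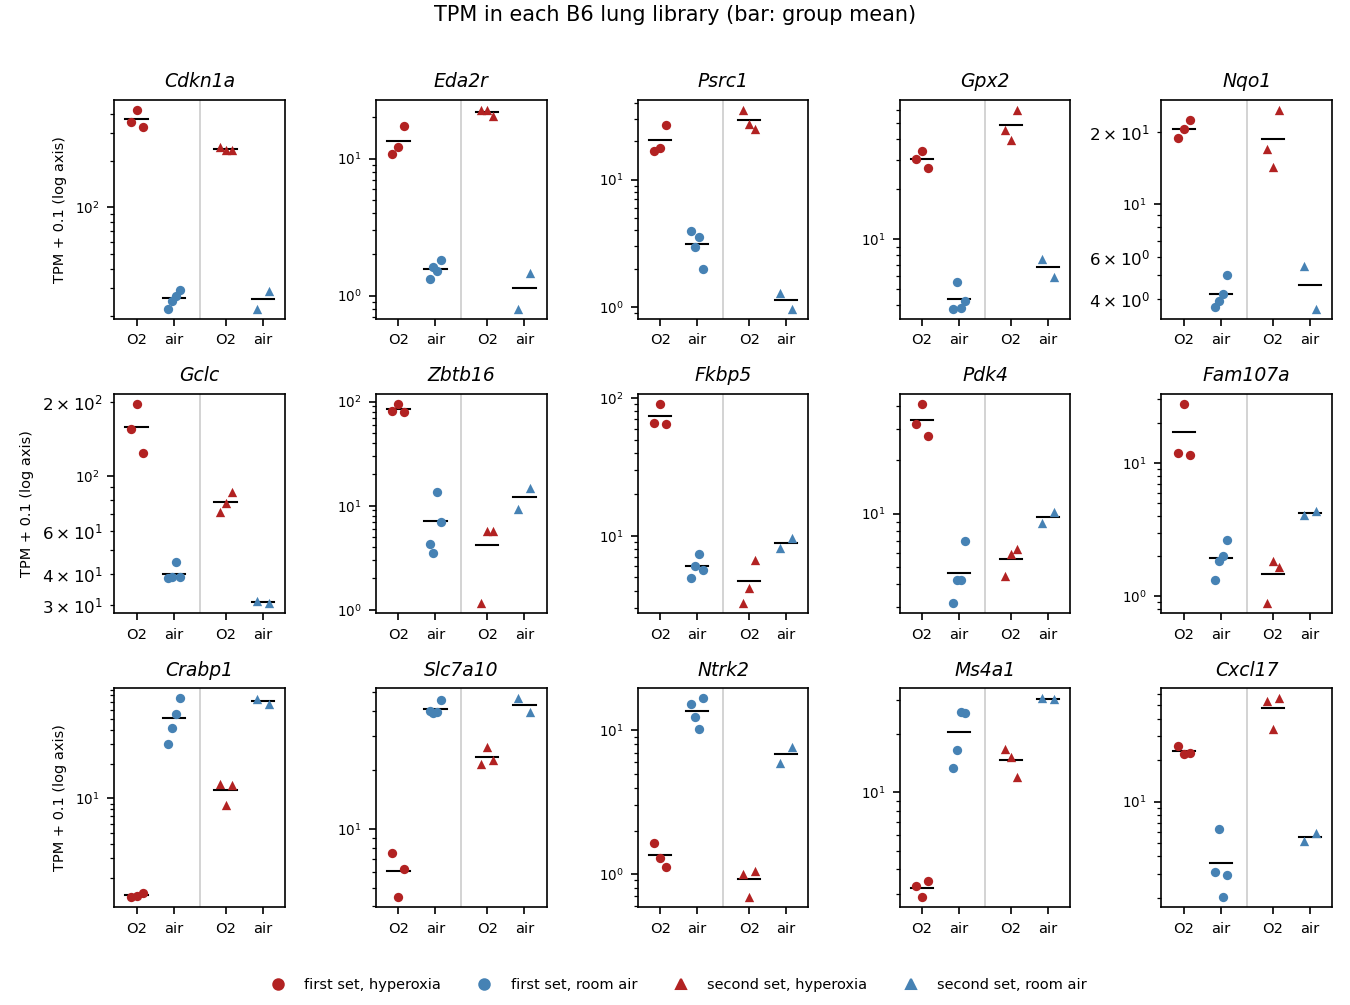
Expression of 15 genes in single libraries on a log axis of TPM + 0.1, hyperoxia left of room air, with the first set as circles, the second set as triangles and a bar at each group mean. Cdkn1a, Eda2r and Gpx2 are higher in hyperoxia in both sets, whereas Zbtb16, Fkbp5, Pdk4 and Fam107a are higher in the first set and not in the second.

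Heart muscle genes were among the largest rises. Myh6, the alpha heavy chain of cardiac myosin, had 35.0, 6.31 and 9.35 TPM in hyperoxia, against 0.727, 0.129, 1.11 and 4.34 TPM in room air. Mb, for myoglobin, had 12.1, 3.42 and 17.2 TPM in hyperoxia, against 0.643, 0.261, 0.296 and 3.4 TPM in room air. Csrp3, a muscle LIM protein, had 9.70, 5.75 and 6.76 TPM in hyperoxia, against 0.329, 0, 2.27 and 0.275 TPM in room air. Of the 15 cardiac muscle genes tested 7 were called higher and 0 lower, and their summed level was 240.0, 86.8 and 159.6 TPM in hyperoxia, against 72.0, 59.1, 56.0 and 92.9 TPM in room air, with the female hyperoxia library highest. Males alone gave 1 higher and 1 lower, as did leaving out the hyperoxia female, while the first date code alone gave 10 higher. Leaving out hyperoxia male 3, room-air male 1 or female 1 gave 3 higher each, and leaving out room-air male 2 gave 2. Of 13 tested in the second set, 0 were higher and 2 lower. Calls of all 3 genes were lost in males alone and without the hyperoxia female, those of Myh6 also without either other hyperoxia library, and those of Myh6 and Mb also without room-air male 1, male 2 or female 1. The part of heart tissue in these libraries was not tested.

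Target genes of p53 rose in both sets. Of 36 tested, 25 were called higher and 3 lower, with a median log2 difference of 0.75, beside 16.6% higher and 26.0% lower and a median of -0.07 over all genes tested. The second set had 20 called higher and 1 lower, beside 3.13% and 1.81% over all genes tested there, and 17 rose in both sets. Males alone gave 23 higher and 2 lower, and the first date code alone gave 22 and 2. Earlier results of these data were known when the lists were drawn up, so their direction is a description.

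Among the arrest and death genes of the list, Eda2r, a receptor of the tumour necrosis factor family, had 10.7, 12.1 and 17.2 TPM in hyperoxia, against 1.22, 1.51, 1.42 and 1.73 TPM in room air. It reached 22.7, 22.5 and 20.4 TPM in hyperoxia in the second set, against 0.703 and 1.36 TPM in room air. Psrc1, a spindle protein, had 16.8, 17.7 and 26.6 TPM in hyperoxia, against 3.86, 2.86, 3.48 and 1.88 TPM in room air (log2 difference 2.41 ± 0.24, adjusted p = 2.54e-06). No hyperoxia value of either gene reached down to room air. Bax, which opens the outer mitochondrial membrane in apoptosis, had 92.8, 90.8 and 107 TPM in hyperoxia, against 40.8, 46.1, 46.3 and 49.3 TPM in room air, and rose in both sets (1.07 and 1.41 on the log2 scale, adjusted p = 4.93e-07 and 0.00124). Pmaip1, the death inducer Noxa, had 16, 18.1 and 26.6 TPM in hyperoxia, against 5.34, 4.51, 5.79 and 5.70 TPM in room air. Bbc3, the death inducer Puma, rose by 0.58 on the log2 scale (adjusted p = 0.00933), and by 0.75 in the second set. The death receptor gene Fas rose by 1.04 and the epithelial gene Perp by 1.62 in the first set, but their second-set differences of -0.22 and 0.14 were not called.

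Feedback and repair genes were less even. Mdm2, the ligase that degrades p53, had 81.8, 77.4 and 91.3 TPM in hyperoxia, against 50.7, 49.9, 46.2 and 50.0 TPM in room air (log2 difference 0.75 ± 0.08, adjusted p = 4.41e-06). Ccng1, for cyclin G1, had 64.0, 70.4 and 96.0 TPM in hyperoxia, against 36.7, 39.2, 50.4 and 45.6 TPM in room air. Trp53inp1, a nuclear partner of p53, had 151, 199 and 224 TPM in hyperoxia, against 40.1, 39.5, 42.8 and 43.9 TPM in room air, and it rose by 0.78 in the second set (adjusted p = 0.00908). Gdf15, a stress cytokine, was at 3.17, 2.99 and 3.21 TPM in hyperoxia and at 0.341, 0.712, 0.874 and 0.325 TPM in room air, and in the second set at 6.75, 9.22 and 10.6 TPM in hyperoxia and at 0.116 and 0.549 TPM in room air. The 3 members called lower in the first set were Plk2 (-1.19), Rrm2b (-0.71) and Ddb2 (-0.31), a kinase, a ribonucleotide reductase subunit and a damage-recognition protein, and none of them was called in the second. Sesn1, a sestrin, went in opposite directions, with a log2 difference of 1.33 in the first set and -0.79 in the second, and both were called. Trp53 itself had 28.1, 24.7 and 19.2 TPM in hyperoxia, against 41.5, 39.9, 34.6 and 34.3 TPM in room air. It was lower in the first set (adjusted p = 0.000338) and had 26.8, 29.8 and 28.1 TPM in hyperoxia, against 21.1 and 22.7 TPM in room air, in the second (log2 difference 0.35, adjusted p = 0.14).

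Binding of p53 in B6 lung was mapped by chromatin immunoprecipitation and sequencing with the antibody 1C12, from 2 samples per condition. The authors pooled the replicates before calling peaks, so peaks of a condition have no replicate spread. The hyperoxia list held 235 peaks and the room-air list 147, of which 8 overlapped. Peak scores are the authors' tag counts per 10 M (mega) tags and had a median of 7 in hyperoxia and 6 in room air. Few tags fell in peaks, 0.02% in hyperoxia and 0.01% in room air per the file headers. Within 10 kb of a start site, 73 tested genes had a hyperoxia peak, of which 21 were called higher in hyperoxia lungs, 14 lower and 38 neither. For room-air peaks the counts were 8 higher, 8 lower and 27 neither out of 43. The share of genes called higher was 28.8% near hyperoxia peaks and 18.6% near room-air peaks, beside 16.6% of all genes tested. Within 1 kb the hyperoxia peaks had 28 tested genes, of which 12 were higher and 3 lower.

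Among peaks within 10 kb of a listed gene the highest score lay at Cdkn1a, at chr17:29090822-29091022 (mm10), at position -2847 from the start of the listed transcript, with 40 tags per 10 M. A weaker hyperoxia peak lay at position -1937 with 13 tags, and no room-air peak was within 10 kb of Cdkn1a. Trp53cor1, a noncoding RNA gene in the neighbourhood of Cdkn1a, had a peak at its start with 33 tags, and its own RNA was not called (log2 difference 0.30, adjusted p = 0.21). Trp53inp1 had a peak at position -175 from its start with 22 tags, and Eda2r had 1 at position 630 with 12 tags. Mdm2 had hyperoxia peaks with 19 and 9 tags and a room-air peak with 5 tags, and Phlda3, which restrains AKT signalling, had 13 tags at its start and an RNA rise of 0.84 (adjusted p = 0.000174). Snhg15, a noncoding host of small nucleolar RNA, had a peak with 21 tags and rose by 1.75 on the log2 scale (adjusted p = 5.42e-06). High peaks also stood near genes whose RNA was not called, among them Sp1 with 31 tags, Exoc4 with 27 and Klhdc4 with 32. The Klhdc4 peak was present in room air as well, with 20 tags.

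Where a hyperoxia peak overlapped a RefSeq promoter window, the best match to the p53 consensus element was looked for. The consensus has 2 decamers of 10 bases, 20 bases in all, which could abut or stand 1 base apart. Each decamer had to hold the fixed C and the fixed G of the consensus. Only the bases shared by peak and window were read. The sequences below come from the RefSeq promoter table for GRCm38 (mm10), read 5′ to 3′ on the strand of the gene, with the 20 bases of the best match in capitals. They are shown because they are the best matches found, with at least 17 of 20 bases, and were chosen after the matches were seen.
Gm51651, chr1:155056304-155056363, plus strand: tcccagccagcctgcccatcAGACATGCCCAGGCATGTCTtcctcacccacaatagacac
Cdkn1a, chr17:29090908-29090967, plus strand: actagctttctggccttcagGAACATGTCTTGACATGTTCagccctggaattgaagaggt
Ckap2, chr8:22185983-22186042, minus strand: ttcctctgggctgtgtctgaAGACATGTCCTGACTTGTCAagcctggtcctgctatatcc
Bbc3, chr7:16309466-16309525, plus strand: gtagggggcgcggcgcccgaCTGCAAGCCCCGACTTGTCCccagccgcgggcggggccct
Aen, chr7:78895937-78895956, plus strand: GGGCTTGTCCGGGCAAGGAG
The match at Gm51651, a predicted gene, held 20 of 20 bases, and 0.0091% of all promoter windows held one as good. It lay under the highest of all hyperoxia peaks, with 62 tags, where room air had an overlapping peak with 20. The Cdkn1a match held 19 of 20 (0.11% of windows as good), and its window belongs to an upstream start of the gene. Ckap2, which encodes a spindle protein, held 18 (0.682%). Its peak had 20 tags, and its RNA averaged 36.7 TPM in hyperoxia and 10.6 TPM in room air (log2 difference 1.74, adjusted p = 1.39e-06). Bbc3 and Aen, a nuclease of apoptosis, held 17 each (2.82%), under peaks of 18 and 15 tags. Weaker matches lay under the other promoter peaks. Exoc4, with 27 tags, held 16 (9.49%), Ei24 15, Ndufa11 14, Smim13 13, Nmt1 12 and Phlda3 9, a score that 83.2% of windows reached. Matches in Exoc4, Ei24 and Nmt1 had a spacer of 1 base. All shares are over whole windows of 300 bases, whereas at most 201 bases were read for any match, so the shares are not like for like. Only 90 bases were read for Phlda3 and 96 for Ndufa11. The rest of those peaks was not searched, so a better match there cannot be told. Aen rose by 0.86 on the log2 scale (adjusted p = 0.000161). A CATG pair, CATG followed after 6 bases by CATG, was held by the promoter windows of 1 of 28 p53 targets, Cdkn1a, and by 0.395% of all tested genes with a window. A match is a description of the letters and not evidence of binding.

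Genes of the NRF2 and glutathione group rose in both sets. Of 30 tested, 22 were called higher and 1 lower with a median log2 difference of 0.71, and of 29 tested in the second set 16 were called higher and 0 lower with a median of 0.83. All 22 that rose in the first set had a positive difference in the second, and 15 of them were called there. Gpx2, an epithelial glutathione peroxidase, had 30.3, 33.7 and 26.7 TPM in hyperoxia, against 3.71, 5.38, 3.75 and 4.12 TPM in room air, and in the second set 45.3, 39.4 and 60.2 TPM in hyperoxia, against 7.53 and 5.83 TPM in room air. The quinone reductase gene Nqo1 had 18.7, 20.5 and 22.4 TPM in hyperoxia, against 3.57, 3.82, 4.09 and 4.91 TPM in room air. Gclc, the catalytic subunit of the enzyme that starts glutathione synthesis, had 156, 197 and 124 TPM in hyperoxia, against 38.2, 38.7, 44.4 and 38.8 TPM in room air. For these 3 genes every hyperoxia library lay above every room-air library in both sets. Its regulatory partner Gclm rose by 0.52 (adjusted p = 0.000405), and Slc7a11, the cystine importer, was at 1.29, 3.04 and 1.35 TPM in hyperoxia and at 0.419, 0.427, 0.326 and 0.455 TPM in room air.

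Conjugating and iron-storing members moved with them. Gsta3, a glutathione transferase, had 67.2, 85.8 and 80.3 TPM in hyperoxia, against 20.6, 24.5, 24.4 and 25.8 TPM in room air (log2 difference 1.66 ± 0.11, adjusted p = 7.09e-08). Akr1b8, an aldehyde reductase, had 34.2, 35.4 and 36.1 TPM in hyperoxia, against 11.3, 11.1, 8.38 and 10.2 TPM in room air, and its log2 difference was 1.7 in each set. Ftl1, the ferritin light chain, had 1505, 1673 and 1634 TPM in hyperoxia, against 779, 863, 912 and 831 TPM in room air, and rose in both sets (0.92 and 0.96). Hmox1, the heme oxygenase, was less firm in the first set, with 37.1, 73.1 and 38.9 TPM in hyperoxia, against 29.7, 29.2, 22 and 23.8 TPM in room air (adjusted p = 0.0262). Its call was lost in males alone, for the first date code alone, with date code as a term and without hyperoxia male 2 or either room-air female. Hmox1 in the second set had 55.6, 55.4 and 65.9 TPM in hyperoxia, against 26.9 and 30.1 TPM in room air, and was called (adjusted p = 0.00518). Taldo1, a pentose phosphate enzyme, was the single member called lower (-0.26), and its second-set difference was 0.27.

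The core of the antioxidant response element, TGACNNNGC, was looked for on both strands of promoter windows from 250 bases before to 50 bases after each start. It was held by 9 of 24 NRF2 group genes with a window (37.5%), by 16.8% of the 11640 tested genes with a window and by 12.4% of all 32851 windows. The holders G6pdx, Pgd, Prdx1 and Ugdh were not called in the first set, with log2 differences of -0.25, 0.18, 0.23 and -0.08. Gpx2, Nqo1, Gclc, Akr1b8, Slc7a11 and Hmox1, which rose, were not among the holders, for want of the core or of a window. The sequences below, from the same RefSeq table, show the core in 3 members that rose, with the letters fixed by the motif in capitals. In Txnrd1, for thioredoxin reductase, and in Gclm it runs on the opposite strand.
Gsta3, chr1:21240444-21240492, plus strand: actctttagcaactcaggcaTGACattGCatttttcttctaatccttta
Txnrd1, chr10:82859094-82859142, plus strand: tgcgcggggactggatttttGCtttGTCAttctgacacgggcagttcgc
Gclm, chr3:122245403-122245451, plus strand: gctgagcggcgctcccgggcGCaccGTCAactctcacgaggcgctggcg
Txnrd1 rose by 1.02 on the log2 scale in the first set (adjusted p = 6.77e-07) and by 0.92 in the second.

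Enzymes that remove superoxide and peroxide went both ways. Sod1, the cytosolic superoxide dismutase, had 489, 537 and 598 TPM in hyperoxia, against 300, 334, 295 and 310 TPM in room air. Sod3, the secreted form that binds to matrix, had 45.9, 43.9 and 27.6 TPM in hyperoxia, against 91.7, 109, 96.3 and 98.6 TPM in room air (log2 difference -1.35 ± 0.16, adjusted p = 7.88e-06). Prdx6, a peroxiredoxin that also acts on surfactant lipid, had 542, 586 and 535 TPM in hyperoxia, against 171, 208, 231 and 217 TPM in room air. In the second set the same 3 genes had log2 differences of 0.34, -0.50 and 0.20, and none was called. Cat, for catalase, was lower at 138, 124 and 86.5 TPM in hyperoxia, against 163, 168, 183 and 176 TPM in room air, a call that was lost for the first date code alone, and was not called in the second set. Over the 16 enzymes tested, 7 were higher and 4 lower in the first set, and 2 higher and 1 lower in the second. NADPH oxidase genes, which produce superoxide, were higher in 1 and lower in 4 of 8, with 2 lower in males alone, for the first date code alone and without the hyperoxia female or male 3, and none was called in the second set.

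Glucocorticoid-responsive genes rose in the first set, and few of those rises had the same sign in the second, although the difference between the sets was not tested. In the first set 19 of 24 were called higher and 1 lower, with a median log2 difference of 1.28, and males alone and the first date code alone gave 20 and 19 higher. In the second set 2 were called higher and 5 lower with a median of -0.35, 3 of the 19 first-set rises had a positive difference there, and 4 were called lower. Zbtb16, a zinc-finger repressor strongly induced by the hormone, had 80.5, 95.4 and 79.4 TPM in hyperoxia, against 4.14, 3.41, 13.6 and 6.81 TPM in room air. The second set had 1.06, 5.61 and 5.64 TPM of Zbtb16 in hyperoxia, against 9.12 and 14.8 TPM in room air, the reverse order without overlap. Fkbp5, a chaperone that restrains the receptor, had 66.3, 90.9 and 64.7 TPM in hyperoxia, against 4.83, 5.94, 7.32 and 5.58 TPM in room air, and in the second set 3.16, 4.12 and 6.6 TPM in hyperoxia, against 8.06 and 9.6 TPM in room air. Pdk4, which limits pyruvate oxidation, had 31.6, 41.3 and 27.1 TPM in hyperoxia, against 3.04, 4.12, 4.16 and 6.88 TPM in room air. Fam107a, an actin-binding protein, had 11.7, 27.8 and 11.4 TPM in hyperoxia, against 1.23, 1.73, 1.91 and 2.54 TPM in room air, and was called lower in the second set (-1.13, adjusted p = 0.0329).

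Further members rose in the first set with second-set differences of either sign. Klf15, a transcription factor of fasting metabolism, had 54.4, 56.9 and 55.5 TPM in hyperoxia, against 7.02, 8.19, 13.4 and 18.7 TPM in room air, and a second-set difference of -0.37 (adjusted p = 0.25). Tsc22d3, the leucine zipper protein GILZ, had 263, 361 and 290 TPM in hyperoxia, against 92.5, 137, 171 and 201 TPM in room air, while the second set had 111, 148 and 140 TPM in hyperoxia, against 279 and 329 TPM in room air. Both differences were called, at 1.06 and -1.19. Mt1, a metallothionein that binds zinc and is induced by metals and oxidants as well, had 95.4, 116 and 111 TPM in hyperoxia, against 28.4, 24.9, 23.0 and 17.0 TPM in room air, and rose in both sets (2.17 and 1.18, adjusted p = 7.37e-06 and 0.0174). Mt2 likewise rose in both (1.81 and 1.08). The hormone receptor gene Nr3c1 was the member called lower in the first set (-0.41).

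Clock genes shifted in the first set, with 11 of 19 called higher and 2 lower and a median of 0.54, whereas 1 was higher and 0 lower in the second set. Per1, which belongs to the clock and to the hormone-responsive list, had 67.5, 59.7 and 60.8 TPM in hyperoxia, against 14.0, 35.6, 37.2 and 47.9 TPM in room air. Cry1, a repressor of the clock, had 28.6, 28.7 and 23.6 TPM in hyperoxia, against 15.3, 15.6, 15 and 15.5 TPM in room air. Room-air male 1 was the lowest for Per1, and for both genes the groups did not overlap. Dbp, an output gene with a wide daily swing, was at 19.8, 10.8 and 17.0 TPM in hyperoxia and at 28.3, 26.8, 15.8 and 16.1 TPM in room air, and was not called (adjusted p = 0.205), although it was called lower in males alone (adjusted p = 0.0219) and for the first date code alone (adjusted p = 0.0417).

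Promoter windows of these groups were read for the elements of their factors. The full glucocorticoid response element, AGAACA followed after 3 bases by TGTTCT, was in 1 of 17 hormone-responsive genes with a window, Sgk1, and in 0.0086% of tested genes. Its left arm AGAACA was in 4 of 17 (23.5%), beside 15.2% of tested genes. The E-box CACGTG, bound by the clock activators, was in 5 of 16 clock genes (31.25%), beside 11.2% of tested genes. Of these holders Per1, Cry1, Tef and Bhlhe41 were called higher in the first set, and Ciart was called lower (log2 difference -0.74, adjusted p = 0.00459). The runs below, from the RefSeq table for GRCm38, show the full element and 2 E-boxes in capitals.
Sgk1, chr10:21993681-21993735, plus strand: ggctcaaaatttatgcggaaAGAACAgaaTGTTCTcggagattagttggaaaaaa
Per1, chr11:69098763-69098808, plus strand: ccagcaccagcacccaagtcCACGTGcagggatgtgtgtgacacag
Cry1, chr10:85185089-85185134, minus strand: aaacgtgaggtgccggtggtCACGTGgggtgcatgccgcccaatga
Sgk1, a kinase that raises sodium uptake, had 199, 221 and 225 TPM in hyperoxia, against 112, 110, 123 and 181 TPM in room air (log2 difference 0.73, adjusted p = 0.00179), and was not called in the second set (-0.33, adjusted p = 0.178).

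**Figure D2:**
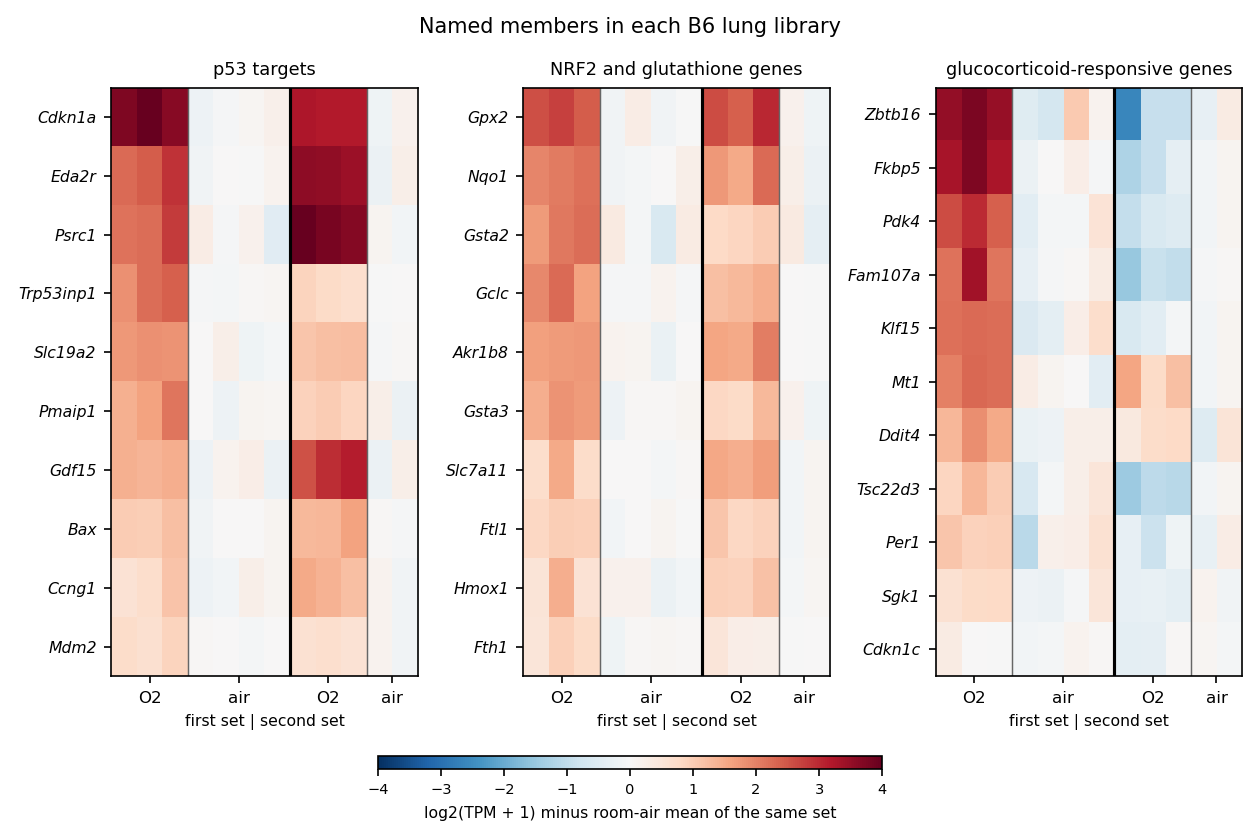
Heat map of named members of the p53, NRF2 and glucocorticoid groups in single libraries. Values are log2(TPM + 1) minus the room-air mean of the same set, with hyperoxia columns left of room-air columns in each set. Members were drawn because they were canonical or had large first-set changes, so the rows do not stand for the whole lists. The p53 targets Plk2, Rrm2b and Ddb2, called lower in the first set, are not drawn. Most of the p53 and NRF2 rows drawn are raised in the hyperoxia columns of both sets. Most glucocorticoid rows are raised in those of the first set, with positive values of Mt1 and Ddit4 in both.

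**Figure D3:**
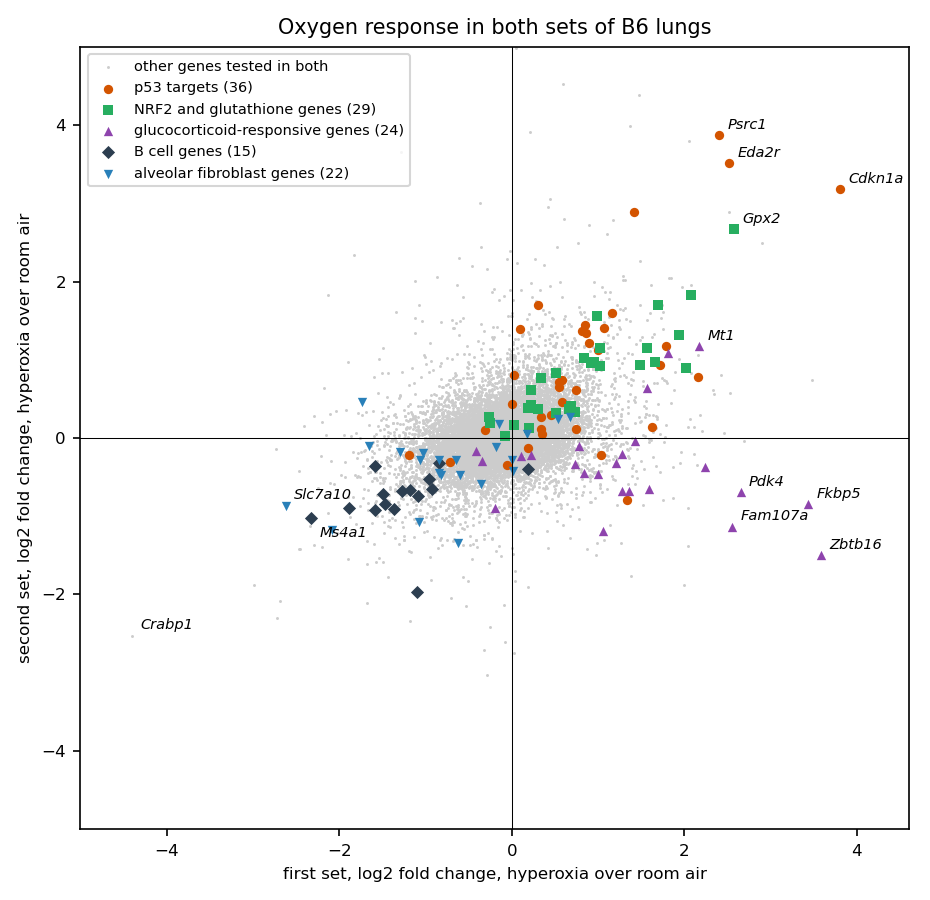
Log2 fold change of hyperoxia over room air in the first set (horizontal) and in the second set (vertical) for the 14511 genes tested in both, with 5 gene lists in colour. Members of the p53 and NRF2 lists lie mostly at upper right, B cell and alveolar fibroblast genes at lower left, and glucocorticoid-responsive genes mostly at lower right, with Mt1 among the exceptions.

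Chaperones of the endoplasmic reticulum, the targets of the unfolded protein response, were lower in the first set, with 12 of 18 called lower and 2 higher. Calr, for calreticulin, had 243, 203 and 186 TPM in hyperoxia, against 474, 428, 618 and 572 TPM in room air. Pdia4, a disulfide isomerase, had 58.8, 50.7 and 51.4 TPM in hyperoxia, against 129, 121, 150 and 148 TPM in room air (log2 difference -1.33 ± 0.09, adjusted p = 9.36e-08). Herpud1, a part of the degradation machinery of the reticulum, went the other way, with 257, 190 and 217 TPM in hyperoxia, against 66.3, 64.0, 77.3 and 72.8 TPM in room air. None of the 18 was called in the second set, although 10 of the 12 had a negative difference there. Cytosolic heat shock genes had 1 of 18 higher and 8 lower in the first set (6 lower in males alone, 4 for the first date code alone) and none called in the second. Genes driven by ATF4, which reads amino acid and oxidant stress, were mixed in the first set (6 of 25 higher, 5 lower) and had 5 higher and 0 lower in the second. Trib3, a pseudokinase of that list, had 9.65, 6.71 and 7.30 TPM in hyperoxia, against 3.37, 2.28, 3.14 and 4.56 TPM in room air, and rose by 1.93 in the second set (adjusted p = 0.00559).

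**Figure D4:**
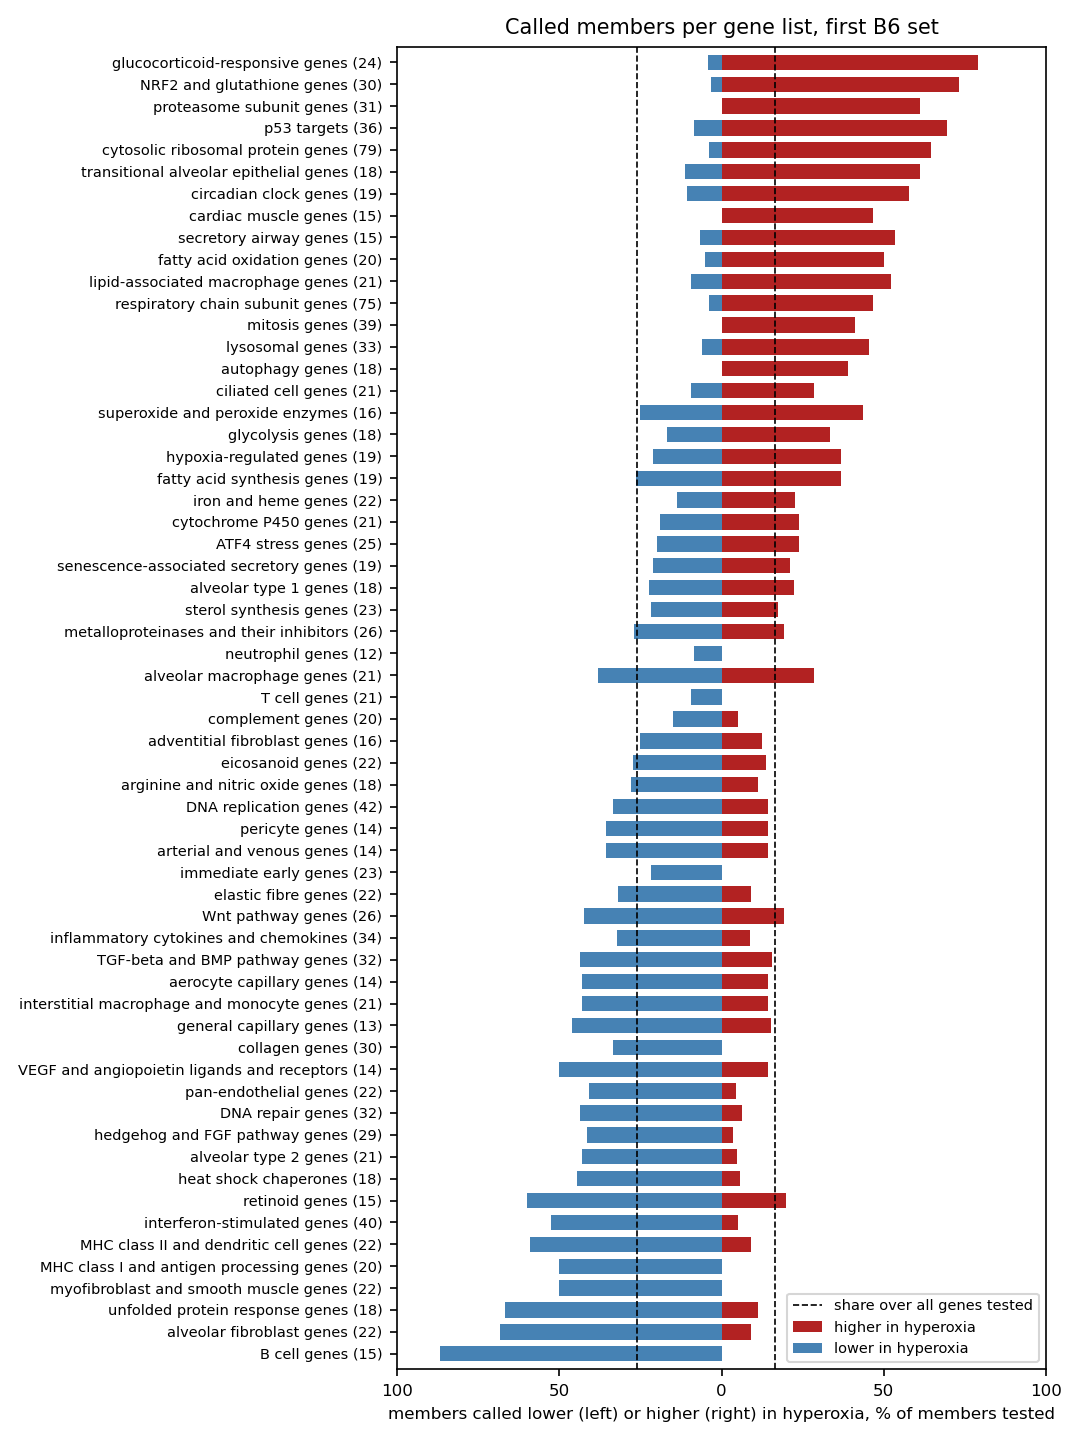
Share of the tested members of each gene list called lower (left) and higher (right) in hyperoxia in the first set. Dashed lines mark the shares over all genes tested, 26.0% lower and 16.6% higher, and the p53, NRF2 and glucocorticoid lists reach furthest beyond the line on the right.

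Alveolar epithelial genes did not move as 1 block. Of 21 genes of alveolar type 2 cells, which make surfactant, 1 was higher and 9 lower (42.9%). Of 18 type 1 genes, of the flat gas-exchanging cells, 4 were higher and 4 lower (22.2% each). Over all genes tested 16.6% were higher and 26.0% lower. Surfactant genes Sftpc and Sftpb had log2 differences of -0.07 and 0.02 and were not called. Acoxl, an oxidase of the type 2 list, had 6.53, 6.41 and 4.11 TPM in hyperoxia, against 18.4, 19.2, 26.1 and 25.6 TPM in room air, and fell in both sets (-1.81 and -1.10, adjusted p = 8.48e-07 and 0.00545). Il33, an alarmin cytokine, had 10.0, 14.9 and 6.00 TPM in hyperoxia, against 32.8, 37.5, 56.7 and 49.7 TPM in room air, but had 54.1, 53.3 and 47.8 TPM in hyperoxia, against 43.8 and 37.3 TPM in room air, in the second set. Hopx, a type 1 transcription cofactor, had 627, 702 and 647 TPM in hyperoxia, against 341, 413, 435 and 401 TPM in room air, with a second-set difference of 0.00.

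Transitional epithelial genes, which mark type 2 cells on the way to type 1 after injury, were higher in 11 of 18 and lower in 2 (median 0.48), and 3 rose in both sets. Those 3 were Krt18, Nupr1 and Lgals3, a keratin, a stress-induced chromatin protein and a galectin. Krt18 had 143, 182 and 148 TPM in hyperoxia, against 62.2, 65.7, 63.9 and 53.3 TPM in room air. Nupr1 had 393, 468 and 369 TPM in hyperoxia, against 150, 180, 174 and 153 TPM in room air, with similar levels in the second set, 395, 427 and 570 TPM in hyperoxia and 151 and 138 TPM in room air. Cldn4, a tight junction claudin, had 10.1, 11.7 and 8.13 TPM in hyperoxia, against 3.24, 2.98, 1.66 and 1.94 TPM in room air, and was not called in the second set (0.71, adjusted p = 0.101).

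Airway secretory genes were higher in 8 of 15 and lower in 1 in the first set (5 higher in males alone, 6 for the first date code alone), and 6 were higher and 1 lower in the second. Scgb3a2, a secretoglobin of club cells, had 1640, 1466 and 1857 TPM in hyperoxia, against 492, 705, 547 and 404 TPM in room air. Pigr, which carries IgA across epithelium, had 20.6, 6.57 and 11.3 TPM in hyperoxia, against 2.14, 5.76, 6.64 and 2.46 TPM in room air, overlapping groups whose call was lost in males alone, for the first date code alone and without the hyperoxia female. Pigr in the second set was at 30.7, 51.1 and 39.8 TPM in hyperoxia, against 2.13 and 1.10 TPM in room air (log2 difference 3.99, adjusted p = 0.00014). Lyz1, a lysozyme also made by type 2 cells, was the member that fell, with 176, 153 and 119 TPM in hyperoxia, against 436, 366, 725 and 436 TPM in room air, and by 2.11 on the log2 scale in the second set. Ciliated cell genes were higher in 6 of 21 and lower in 2, but in males alone 1 was higher and 2 lower. The transcription factor Foxj1, which directs ciliogenesis, rose in both sets (0.84 and 1.06), and its first-set call was lost in males alone.

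Endothelial genes fell in part. Of 22 pan-endothelial genes 9 were lower and 1 higher in the first set and 6 lower and 0 higher in the second. Of 13 general capillary genes, from the capillary cells that proliferate and repair, 6 were lower and 2 higher in the first set and 9 lower and 0 higher in the second, and 6 fell in both. Kit, the receptor of stem cell factor, had 37.3, 28.2 and 29.2 TPM in hyperoxia, against 85.9, 83.4, 67.0 and 58.4 TPM in room air, and in the second set 12.8, 22.1 and 18.9 TPM in hyperoxia, against 46.6 and 51.8 TPM in room air. Aplnr, the apelin receptor, had 68.6, 52.8 and 54.5 TPM in hyperoxia, against 108, 111, 111 and 84.3 TPM in room air, and fell in both sets (-0.81 and -1.37, adjusted p = 2.92e-05 and 0.0094). For both genes the groups did not overlap in either set. Gpihbp1, which anchors lipoprotein lipase on capillaries, was called higher in the first set (0.32) and lower in the second (-0.58), but the first-set call was lost without room-air male 1, hyperoxia male 2 or hyperoxia male 3.

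Aerocyte genes, of the thin capillary cells next to type 1 cells, had 6 of 14 lower and 2 higher in the first set, against 1 lower and 1 higher in the second. Among arterial and signalling genes, Gja5, an arterial gap junction protein, had 9.02, 8.90 and 11 TPM in hyperoxia, against 42.8, 44.0, 38.3 and 52.6 TPM in room air, and was not called in the second set (-0.29, adjusted p = 0.304). Cxcl12, a chemokine that guides vessel growth, had 34.8, 22.3 and 41.4 TPM in hyperoxia, against 99.7, 98.2, 88.0 and 108 TPM in room air, and fell in both sets (-1.60 and -1.35). Calcrl, the receptor of adrenomedullin, had 186, 217 and 217 TPM in hyperoxia, against 392, 439, 530 and 532 TPM in room air, and fell in both as well (-1.18 and -0.97). Among ligands, Vegfa, the main endothelial growth factor, which type 1 cells supply, was lower in the first set (-0.69, adjusted p = 3.62e-05), with a second-set difference of -0.26 that was not called. Pgf, the placental growth factor, rose in both sets, with 21.0, 16.4 and 13.9 TPM in hyperoxia, against 8.28, 8.08, 5.44 and 5.00 TPM in room air in the first. Lyve1, a hyaluronan receptor of lymphatics and of some macrophages, had 493, 820 and 432 TPM in hyperoxia, against 106, 154, 172 and 182 TPM in room air, while the lymphatic list had 1 of 11 higher and 2 lower.

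Alveolar fibroblast genes fell. Of 22 tested, 15 were lower and 2 higher with a median of -0.74, and 14 of the 15 were negative in the second set, where 4 were called lower. Those 4 were Slc7a10, Inmt, Pdgfra and Scube2. Slc7a10, a transporter of small neutral amino acids, had 7.38, 4.36 and 6.09 TPM in hyperoxia, against 40.2, 39.1, 39.6 and 45.7 TPM in room air, and in the second set 21.3, 26.2 and 22.4 TPM in hyperoxia, against 46.8 and 39.8 TPM in room air. Inmt, a methyltransferase that is abundant in lung stroma, had 78.9, 197 and 161 TPM in hyperoxia, against 311, 608, 818 and 738 TPM in room air. The female hyperoxia library and room-air male 1 were the lowest of their groups for Inmt. Scube2, a secreted factor that helps hedgehog ligands to spread, had 51.3, 58.0 and 53.6 TPM in hyperoxia, against 116, 127, 112 and 107 TPM in room air, with a log2 difference of -1.07 in each set. Pdgfra, the growth factor receptor of septal fibroblasts, was lower in the first set (-0.62), a call lost in males alone and for the first date code alone, and lower in the second (-1.34, adjusted p = 0.0134). Meox2, a homeobox gene, had 12.8, 12.8 and 19.4 TPM in hyperoxia, against 66.3, 55.7, 43.6 and 44.0 TPM in room air, but a second-set difference of 0.46 (adjusted p = 0.305).

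Myofibroblast and smooth muscle genes, of the cells that lay down elastin at septal tips, went down in the first set (0 of 22 higher, 11 lower, with 16 lower in males alone) and partly up in the second (4 of 21 higher, 1 lower). Hhip, which binds hedgehog ligands, fell in both sets, with 11.7, 10.6 and 11.9 TPM in hyperoxia, against 34.0, 33.3, 35.6 and 40.0 TPM in room air in the first. Acta2, smooth muscle actin, had a log2 difference of 0.00 in the first set and rose by 0.75 in the second (adjusted p = 0.0308). P2ry14, a nucleotide receptor, was called in opposite directions (-1.01 and 1.06). Elastic fibre genes were lower in 7 of 22 (31.8%, beside 26.0% of all genes tested) and higher in 2. Males alone gave 13 lower and the first date code alone 9, and none was called in the second set. Mfap4, a microfibril protein, had 1468, 1411 and 1506 TPM in hyperoxia, against 2532, 2695, 2464 and 2853 TPM in room air. Elastin itself, Eln, had 3087, 2447 and 1455 TPM in hyperoxia, against 3573, 3026, 2168 and 2370 TPM in room air, overlapping groups that were not called (-0.30, adjusted p = 0.322), whereas males alone gave a call (-0.80, adjusted p = 0.0247). Lox, the enzyme that cross-links elastin and collagen, had 107, 150 and 90.8 TPM in hyperoxia, against 64.9, 67.8, 64.3 and 69.9 TPM in room air. Collagen genes were lower in 10 of 30 (33.3%, beside 26.0% of all genes tested) and higher in none, with a median of -0.25. Males alone gave 14 lower with a median of -0.71, and 5 were lower without hyperoxia male 3.

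Several ligands that shape alveoli were lower in the first set. Shh, the hedgehog ligand of epithelium, had 5.70, 5.89 and 6.40 TPM in hyperoxia, against 17.1, 16.3, 15.4 and 19.4 TPM in room air. Bmp3, a ligand that opposes other bone morphogenetic proteins, had 11.8, 8.64 and 9.94 TPM in hyperoxia, against 36.8, 35.8, 38.7 and 37.2 TPM in room air. Wnt2, a mesenchymal ligand, had 6.13, 5.76 and 10.7 TPM in hyperoxia, against 23.5, 27.1, 23.1 and 26.8 TPM in room air. These 3 ligand genes had second-set differences of 0.30, -0.19 and -0.10, and none was called there. By pathway, 12 of 29 hedgehog and FGF genes were lower and 1 higher, 14 of 32 TGF-beta and BMP genes lower and 5 higher, and 11 of 26 Wnt genes lower and 5 higher, beside 26.0% lower and 16.6% higher over all genes tested. Fst, which traps activin, was called in opposite directions, with 6.88, 6.55 and 4.83 TPM in hyperoxia, against 1.62, 1.55, 2.92 and 1.75 TPM in room air in the first set, and 1.63, 1.08 and 1.08 TPM in hyperoxia, against 4.32 and 5.08 TPM in room air in the second. Retinoid genes had 9 of 15 lower and 3 higher, with 5 lower in males alone and without the hyperoxia female, and 6 lower for the first date code alone. Cyp26b1, which degrades retinoic acid, fell in both sets together with Crabp1, and had 3.16, 3.23 and 2.30 TPM in hyperoxia, against 6.93, 8.79, 8.63 and 10.3 TPM in room air. Lrat, which stores retinol as ester, had 0.281, 0.472 and 0.609 TPM in hyperoxia, against 2.76, 3.56, 6.11 and 6.82 TPM in room air, with a second-set difference of 0.03.

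B cell genes fell in both sets. Of 15 tested, 13 were called lower and 0 higher with a median of -1.27, and 7 were called lower in the second set with a median of -0.72. All 13 had a negative difference there, and all 7 were among them. Ms4a1, the surface protein CD20, had 3.18, 2.77 and 3.38 TPM in hyperoxia, against 13.3, 16.4, 25.9 and 25.7 TPM in room air, and in the second set 16.6, 15.1 and 11.9 TPM in hyperoxia, against 30.6 and 30.0 TPM in room air. The groups did not overlap in either set. Pax5, the factor that fixes B cell identity, fell by 1.10 in the first set and by 1.97 in the second. The 2 members not called were Ebf1 (0.19), which lung fibroblasts also express, and Vpreb3 (-0.84). T cell genes had 2 of 21 lower and 0 higher, with none called in the second set. Their differences were small but of 1 direction, with 0 of 21 positive in the first set (median -0.28). All 20 tested in both sets were negative in the second as well (median -0.46). MHC class II and dendritic cell genes had 13 of 22 lower and 2 higher in the first set (median -0.67), and 1 lower and 1 higher in the second. Ciita, the master regulator of class II genes, had 0.766, 0.886 and 1.25 TPM in hyperoxia, against 4.36, 4.64, 4.02 and 4.13 TPM in room air, with a second-set difference of -0.34 (adjusted p = 0.418). B cells express class II genes too, and the part of B cells in their fall was not tested.

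**Figure D5:**
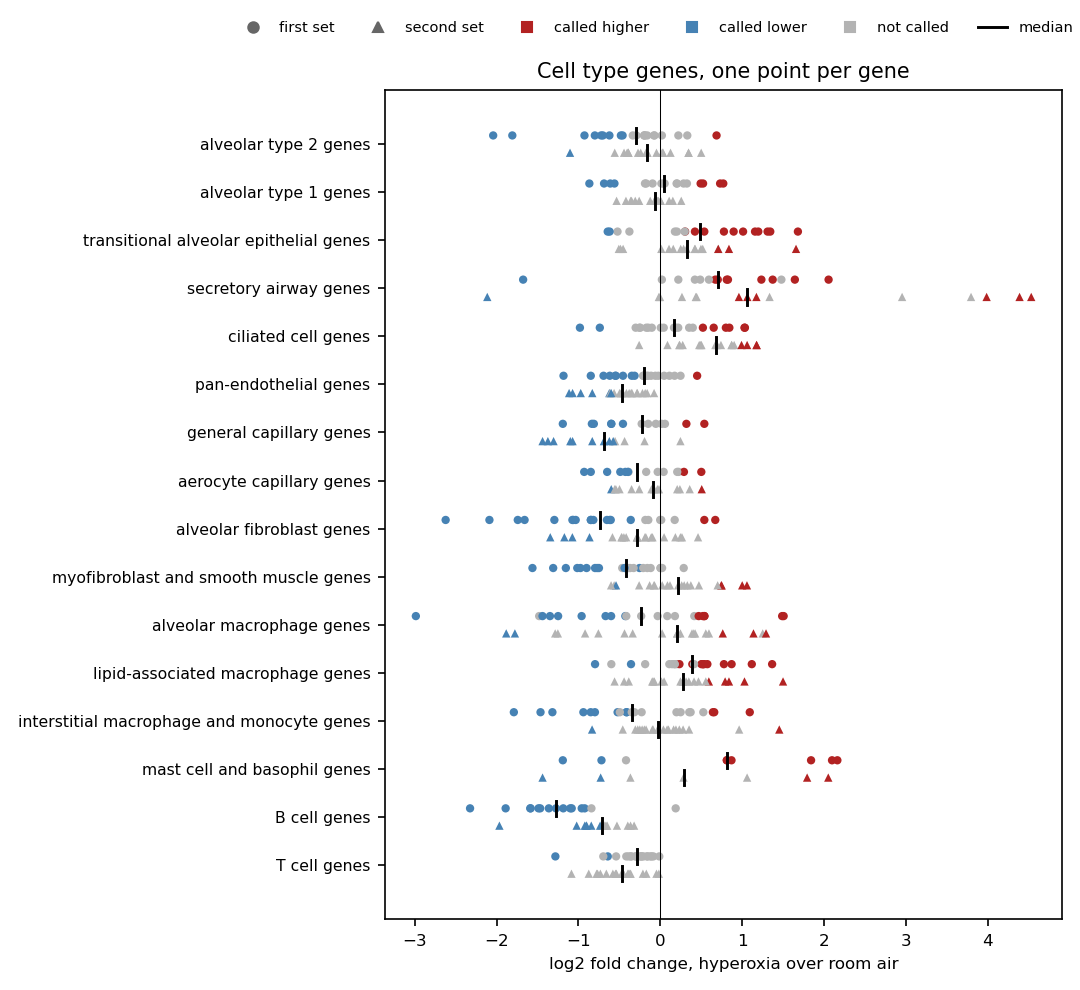
Log2 fold change of hyperoxia over room air for the members of 16 cell type lists, with the first and second sets side by side and a bar at each median. Most B cell and alveolar fibroblast members lie below 0 in both sets, and general capillary members have medians of -0.23 in the first set and -0.69 in the second.

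Genes of lipid-associated macrophages were higher in 11 of 21 and lower in 2 (7 higher without hyperoxia male 2), and 4 rose in both sets, among them Trem2, the receptor that gives these cells their lipid-handling state. Trem2 had 8.47, 5.97 and 9.85 TPM in hyperoxia, against 3.36, 3.45, 3.73 and 2.14 TPM in room air, and in the second set 7.61, 8.43 and 10.7 TPM in hyperoxia, against 3.79 and 3.85 TPM in room air. Gpnmb, a glycoprotein of lipid-laden cells, had 6.14, 7.49 and 5.58 TPM in hyperoxia, against 1.19, 1.92, 2.24 and 2.20 TPM in room air, and rose by 1.5 in the second set. No hyperoxia library overlapped room air for either gene. Alveolar macrophage genes were mixed, 6 of 21 higher and 8 lower (4 and 4 for the first date code alone), and interstitial macrophage and monocyte genes were lower in 9 of 21 and higher in 3. Marco, a scavenger receptor, had 29.3, 57.3 and 22.7 TPM in hyperoxia, against 10.1, 16.8, 11 and 8.38 TPM in room air, a call lost in males alone and with date code as a term but present in the second set (1.29, adjusted p = 0.0313). Of 9 mast cell and basophil genes 6 were higher and 2 lower in the first set, and 2 of 7 were higher and 2 lower in the second. Mcpt4, a mast cell protease, had 3, 10.5 and 8.34 TPM in hyperoxia, against 0.878, 1.12, 0.527 and 0.318 TPM in room air, and Tpsb2, a tryptase, rose in both sets (1.84 and 2.05). Gata2, a transcription factor on that list, was called in opposite directions (0.81 and -0.73). Kit, on the same list, fell with the capillary genes.

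Interferon-stimulated genes were lower in 21 of 40 and higher in 2 in the first set, with 12 and 9 lower in males alone and for the first date code alone, and 0 lower and 2 higher of 39 in the second set. The 2 that rose were Ifit3 and Cxcl10 in both sets. Ifit3, an antiviral protein, had 41.8, 66.4 and 62.2 TPM in hyperoxia, against 21.3, 21.0, 31.1 and 20.5 TPM in room air. Cxcl10, a chemokine that attracts activated T cells, had 1.78, 3.15 and 5.63 TPM in hyperoxia, against 0.514, 0.669, 1.09 and 0.973 TPM in room air. Ccl2, the monocyte chemoattractant, had 3.52, 1.94 and 6.17 TPM in hyperoxia, against 1.03, 0.286, 0.388 and 0 TPM in room air, and rose in both sets. Over all cytokine and chemokine genes, 3 of 34 were higher and 11 lower in the first set (32.4%, beside 26.0% of all genes tested). In the second set 10 of 35 were higher and 1 lower. Cxcl5 (3.91) and Saa3 (3.06), a neutrophil attractant and an acute-phase protein, led there. Their first-set differences of 0.21 and 0.45 were not called.

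Mitosis genes had 16 of 39 called higher and 0 lower (median 0.32) in the first set and 12 higher and 0 lower (median 0.66) in the second, and 7 were higher in both. The first-set count was 6 in males alone and 2 for the first date code alone, 7 without hyperoxia male 2 or room-air female 1, and 10 without room-air male 2 or female 2. Cdk1, the kinase that starts mitosis, had 15.3, 15 and 16.4 TPM in hyperoxia, against 11.1, 8.15, 7.30 and 9.09 TPM in room air, and rose in both sets (0.75 and 0.92, adjusted p = 0.00068 and 0.00908). Mki67, the common marker of dividing cells, was not called (0.18). DNA replication genes had 14 of 42 lower (33.3%) and 6 higher (14.3%) in the first set, beside 26.0% and 16.6% of all genes tested. In the second set 8 were higher and 0 lower. The first-set counts were 8 lower and 10 higher after quantile normalization, 7 lower and 3 higher for the first date code alone, and 9 lower and 7 higher without hyperoxia male 2. Mcm2, of the replicative helicase, had 9.80, 8.35 and 7.51 TPM in hyperoxia, against 14.9, 14.8, 16.4 and 18.1 TPM in room air, and a second-set difference of 0.51 (adjusted p = 0.2). DNA repair genes were lower in 14 of 32 and higher in 2, with 8 lower in males alone, for the first date code alone and after quantile normalization. Among the 14 was Parp1, which senses strand breaks, with 12.7, 14.9 and 11.5 TPM in hyperoxia, against 31.5, 26.2, 29.0 and 28.4 TPM in room air. None of the 14 was called lower in the second set, where Parp1 had a difference of 0.02.

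Lungs of Trem2 KO mice were measured in the same table. The oxygen response of KO minus that of B6 differed for 3955 genes (25.3%), including 3210 of the B6 calls. The same B6 difference enters the calls and the subtraction, which favours B6 calls in this count. All 8 KO libraries were male and carried later date codes than the B6 hyperoxia libraries, so in hyperoxia genotype and date cannot be told apart. The KO rise of Cdkn1a was 2.73 on the log2 scale, against 3.80 in B6, and Spink5 rose by 2.88 in KO and 2.90 in B6. For Zbtb16 and Fkbp5 the KO lungs had differences of -2.75 and -0.58, opposite to the first B6 set and in the direction of the second. The p53 list had a median log2 difference of 0.70 in KO lungs and 0.75 in the first B6 set. For the glucocorticoid list the medians were -0.35 and 1.28. The median over all genes tested in KO lungs was not taken.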

How the data were processed

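Expression values were used as TPM, which the authors deposited for 24940 RefSeq transcripts, 1 per gene symbol, from reads aligned with STAR to mm10 and counted with HOMER, per the submitters' processing notes. Peak scores are tag counts scaled to 10 M, per the file headers, from tag directories that pool replicates, with Bowtie2 named as aligner in the submitters' processing notes, and were called at 4-fold over input and a false discovery rate of 0.001. Versions of these tools: not given in the sources used here. Columns were matched to groups by name, and 0 other per-sample columns were left aside. Reads per library were estimated from TPM times transcript length, which gave whole multiples within 0.15. Since TPM are shares of a library, a few abundant transcripts lower all others.

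Genes with at least 1 TPM in 3 libraries (2 in the second set) were tested on log2(TPM + 1) with limma 3.58.1 in R 4.3.3, with a variance trend, 1 mean per group and the 4 B6 and KO groups in 1 fit. Benjamini-Hochberg adjustment ran over all genes tested, and calls were made at 0.05. The procedure was tested on simulated data. Sets were matched by symbol. Gene lists are described by counts and medians with no set test. The members and the 75 gene lists were chosen with earlier results of these data known. Named genes are Trem2, Trp53 and Cdkn1a, the 15 largest rises and 15 largest falls among calls without overlap and with a mean of at least 5 TPM in the higher group (predicted genes left out), up to 6 called members per list with the largest changes, canonical members of each list, the 10 peaks with the highest scores within 10 kb of a start site, and any peak within 10 kb of a gene named by the first 2 parts of the rule. Aen, Bbc3, Ckap2, Cxcl5, Ddb2, Ebf1, Ei24, Fas, Gclm, Mt2, Ndufa11, Nmt1, Nr3c1, Pax5, Perp, Phlda3, Plk2, Rrm2b, Saa3, Sesn1, Smim13, Taldo1, Txnrd1 and Vpreb3 were named after their values were seen, as were the genes plotted. Ciart, G6pdx, Pgd, Prdx1 and Ugdh were likewise named after their values were seen.

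Alternatives were quantile and median-ratio scaling, a pseudocount of 0.1, no filter or a mean of 5 TPM, a minimum log2 difference of 1, B6 libraries alone in the fit, sex as a term, males alone, the first date code alone, each library left out and peak windows of 1 and 50 kb. Date code as a term and the search for the p53 consensus were added after seeing the data. Promoter windows and their sequences are from RefSeq (GRCm38), 250 bases before to 50 after each start, with motifs read on both strands. Peaks were taken to overlap where their coordinates shared at least 1 base.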

Additional observations from a re-analysis of the deposited data

Results flagged for a closer look

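Of the 32 genes named for size of change or role in the study, 25 had oxygen responses that differed between KO and B6 lungs. This interaction test (limma, adjusted p under 0.05) called 25.3% of all genes tested. In 23 of the 25 the KO response was closer to 0 or opposite. Most of the 32 were chosen for large changes in the same B6 comparison that is subtracted here. That choice favours a smaller KO response, so these counts do not test whether KO lungs respond less. Of rises in B6, the KO minus B6 difference of log2 responses was -6.34 for Zbtb16, -4.28 for Myh6, -4.01 for Fkbp5, -3.77 for Pdk4, -3.60 for Fam107a, -3.52 for Mb, -3.28 for Csrp3, -2.80 for Arg2, -1.14 for Clca3a1 and -1.07 for Cdkn1a. Eda2r (0.77) and Psrc1 (1.11) rose more in KO lungs. Of falls in B6, the difference was 0.87 for Trp53, 1.03 for Crabp1, 1.04 for Havcr1, 1.37 for Tubb4a, 1.42 for Prelp, 1.55 for Kctd21, 1.60 for Slc7a10, 1.67 for AU021063, 1.77 for Ms4a1, 1.84 for Ptpn5, 1.85 for Plekha6, 1.99 for Slitrk6 and 3.65 for Nr4a1. The KO libraries were all male, and the KO and B6 hyperoxia libraries shared no date code, so in hyperoxia date and genotype cannot be told apart.

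For 5 of the named genes every library of the second B6 set moved opposite to the first, with no overlap between hyperoxia and room air in either. Their second-set log2 fold changes were -1.49 for Zbtb16, -0.85 for Fkbp5, -0.69 for Pdk4, -1.13 for Fam107a and 0.35 for Trp53. Trp53 was not called in the second set. Most of the 32 genes were chosen for groups that did not overlap in the first set, as held for 43.7% of all genes tested. The share of all genes with such opposite separation was not taken, so the count of 5 has no background beside it. The difference between the sets was not tested, because the tables were normalized separately. No room-air library stood far from the others for any of the 32 genes by Dixon's test, and the hyperoxia group was too small for it.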

How the results depend on the processing

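Of 493 named genes tested, 403 were called. Under every alternative that tested the gene, other than the minimum log2 difference of 1, 299 stayed called. The remaining 104 were lost under at least 1 of these, and 0 changed sign while called. Genes below the mean of 5 TPM were not tested under that filter, which did not count as a loss. That minimum was reached by 172 of the 403 and by 154 of the 299. Males alone kept 330 and the first date code alone 337. Of the 32 genes named for size or role, 29 were called wherever they were tested, the exceptions being Myh6, Mb and Csrp3. Among the 29, Trem2, Fabp1, Havcr1, Clca3a1, AU021063 and Kctd21 were not tested under the mean of 5 TPM. All of the 29 but Trp53 reached the minimum log2 difference. A minimum log2 difference of 1 left 898 of 6662 B6 calls (344 higher, 554 lower), and the first date code alone gave 4248 (1466 higher, 2782 lower), of which 3953 were calls of the whole comparison with the same sign. Quantile normalization gave 6338 calls, 48.5% of them higher. Leaving out 1 library gave 5657 to 6287.

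The second set, at 7.08 to 8.04 M reads, was less firm. No filter on low values gave 272 calls (160 higher, 112 lower), and leaving out 1 library gave 123 to 705 (93 to 462 higher, 30 to 243 lower), beside 723 (458 and 265). With the replicate number as a block it gave 348 (224 and 124), although numbers in titles and columns differ and nothing shows that they pair animals. No paired analysis was possible because the columns of the first table carry numbers that the titles do not share. Genes whose response was lower in KO than in B6 numbered 1402, and 909 in males alone. Peaks counted within 1 kb and 50 kb had 12 and 39 genes called higher, beside 21 within 10 kb. S100a8, not called at -0.21, reversed to 0.75 in males alone (adjusted p = 0.0339). The cause was not tested for any of these.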

Other observations

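Genes of protein synthesis and turnover were raised in the first set by small amounts. Of 79 cytosolic ribosomal protein genes 51 were called higher and 3 lower (median log2 difference 0.43), but 38 and 19 were higher in males alone and for the first date code alone, and 1 of 76 was called in the second set, Rps19, which had 376, 357 and 503 TPM in hyperoxia, against 232, 247, 227 and 203 TPM in room air. Proteasome genes were higher in 19 of 31 and respiratory chain genes in 35 of 75, with 2 and 5 called higher in the second set. Proteasome genes had 12 higher without hyperoxia male 3 or room-air male 1, ribosomal protein genes 29 without hyperoxia male 3, and respiratory chain genes 21 for the first date code alone. Lysosomal genes were higher in 15 of 33 and lower in 2 (8 and 5 in males alone, 8 and 2 for the first date code alone and without hyperoxia male 2, 9 and 3 without the hyperoxia female or room-air female 2), and autophagy genes higher in 7 of 18 and lower in 0. Sqstm1, an autophagy receptor that also frees NRF2, had 333, 378 and 310 TPM in hyperoxia, against 218, 218, 200 and 195 TPM in room air.

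Energy genes shifted with them. Fatty acid oxidation genes were higher in 10 of 20 and lower in 1 (7 higher in males alone, 4 for the first date code alone), among them Acadl, a dehydrogenase of long-chain acyl groups, with 166, 161 and 150 TPM in hyperoxia, against 91.7, 87.9, 91.8 and 91.7 TPM in room air, while 0 of 20 were called in the second set. Ldhb, a lactate dehydrogenase subunit, had 125, 104 and 97.4 TPM in hyperoxia, against 46.0, 56.7, 66.4 and 47.5 TPM in room air, and rose in both sets (1.00 and 0.90, adjusted p = 1.86e-05 and 0.00611). Hypoxia-regulated genes were higher in 7 of 19 and lower in 4 (4 and 4 for the first date code alone), and complement genes higher in 1 of 20 and lower in 3. Ass1, which makes argininosuccinate, had 7.11, 8.97 and 5.48 TPM in hyperoxia, against 2.70, 2.86, 2.38 and 2.99 TPM in room air, and rose in both sets (1.11 and 1.15).

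Cytochrome P450 genes were higher in 5 of 21 (23.8%) and lower in 4 (19.0%) in the first set. Over all genes tested the shares were 16.6% and 26.0%. Males alone and the first date code alone gave 2 higher and 4 lower, and 3 were higher without the hyperoxia female or male 2. In both sets 3 were lower. Cyp2e1, which oxidises ethanol and makes radicals, was 1 of the 15 largest falls, with 2.65, 10.5 and 1.92 TPM in hyperoxia, against 14.8, 25.4, 30.4 and 26.0 TPM in room air, and a second-set difference of -1.37 (adjusted p = 0.0147). Havcr1, a phosphatidylserine receptor, had 0.776, 0.157 and 0.250 TPM in hyperoxia, against 8.84, 8.89, 5.18 and 10.3 TPM in room air, but the second table lists another of its transcripts, which had a difference of -0.13 (adjusted p = 0.879). Nr4a1, an immediate early nuclear receptor, had 8.05, 7.10 and 6.57 TPM in hyperoxia, against 45.7, 51.9, 38.1 and 29.6 TPM in room air. It fell in both sets (-2.33 and -1.12). The immediate early list as a whole had 5 of 23 lower (21.7%, beside 26.0% of all genes tested) and 0 higher. Median-ratio scaling gave 4 higher and 5 lower.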
